A study of Mus musculus with 6 samples.

Results

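The somatotropic axis is the hormonal chain that sets growth hormone release and, through IGF-1, much of growth and bone formation. It was examined here in the arcuate nucleus (ARC) through 10 genes, which were chosen by name out of the 24015 gene symbols listed in the count data: *Ghrh*, *Sst*, *Ghsr*, *Sstr1*, *Sstr2*, *Sstr3*, *Igf1*, *Igf1r*, *Igfbp2* and *Igfbp5*. RNA was sequenced from hand-dissected ARC of 3 control and 3 mutant mice, all adult females of a mixed strain, given as CD-1, 129P2 and C57BL/6 in the sample labels and as CD-1 and 129P2 in the study's methods. The controls were Esr1fl/fl, carrying floxed alleles of *Esr1*, the gene of estrogen receptor alpha (ERα), without Cre. The mutants were Esr1fl/fl;Nkx2-1-Cre, called Esr1Nkx2-1Cre below. Both genotypes therefore carried the floxed alleles, and Cre driven from *Nkx2-1* acted across the medial basal hypothalamus, in the ARC and in the ventrolateral part of the ventromedial hypothalamus (VMH), and not in one neuronal class. The comparison of mutants with controls asks which ARC transcripts differ when ERα is lost in these regions. Only the mutants carried Cre, so the loss of ERα and the presence of Cre cannot be told apart. The study also reports infertility, lower activity and denser bone in these females. Direct effects of the loss and later changes in the animal cannot be told apart either.

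GHRH neurons of the ARC release growth hormone-releasing hormone into the portal blood of the median eminence, and it drives growth hormone secretion from the pituitary. Somatostatin has the opposite action, both at the pituitary, where it comes mainly from periventricular neurons, and locally within the ARC, where somatostatin neurons and their receptors are also found. Ghrelin acts on this circuit through the receptor encoded by *Ghsr*. Growth hormone raises IGF-1, which feeds back on the hypothalamus and the pituitary and is held in tissue fluids by the IGF binding proteins.

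Between 11792440 and 17877137 counts fell on genes per sample. Levels are given as CPM, in which each count is divided by the library size after TMM scaling, and each run of 6 values lists controls 1, 2 and 3 and then mutants 1, 2 and 3. The floor, the level that 3 counts would give in a library, was 0.175 to 0.248 CPM and takes account of counting error alone. Fold changes are log2 of mutant over control. They come from edgeR's quasi-likelihood test on 15236 genes that passed its default filter on low counts, with Benjamini-Hochberg adjustment over all of them and a threshold of 0.05. *Esr1*, as a check of the genotype, averaged 56.8 ± 8.01 CPM in controls against 9.47 ± 2.37 CPM in mutants (SD over 3 samples each). The 5 ARC markers *Agrp*, *Npy*, *Pomc*, *Tbx3* and *Cited1* were present in every sample, and their summed level was 605 to 686 CPM in controls and 661 to 850 CPM in mutants. Control replicate 2 stood apart from the other libraries in the markers of some tissues that border the ARC, though not in those of the VMH. Its summed pituitary markers were at 6.11 CPM against 469 to 768 CPM in the others. It was also the lowest of the 6 samples in the summed tanycyte, vascular and leptomeningeal markers. Not every gene of these lists was lowest there: *Gpr50*, *Cldn5*, *Flt1*, *Col1a2*, *Slc6a13* and *Slc13a4* were not. The summed VMH markers also differed between libraries, at 89.3, 205 and 144 CPM in controls and 109, 250 and 312 CPM in mutants.

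None of the 10 members had an adjusted p-value under 0.05, against 0.118% of all tested genes (18 of 15236). All 10 passed the filter. Before adjustment, *Sst* and *Sstr1* had p-values under 0.05, which 8.85% of all tested genes had (1349). The groups did not overlap for 3 members, *Sst* and *Sstr1* on the lower side and *Igfbp5* on the higher, against 15.8% of all tested genes (2401), or 7.88% in each direction. The log2 fold change was above 0 for 6 members and below 0 for 4, with a median of 0.036 against 0.0036 over all tested genes. A permutation test of 3 females against 3 cannot give an exact two-sided p under 0.1. In bulk tissue, fewer cells of a type and less RNA per cell cannot be told apart.

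**Figure D1:**
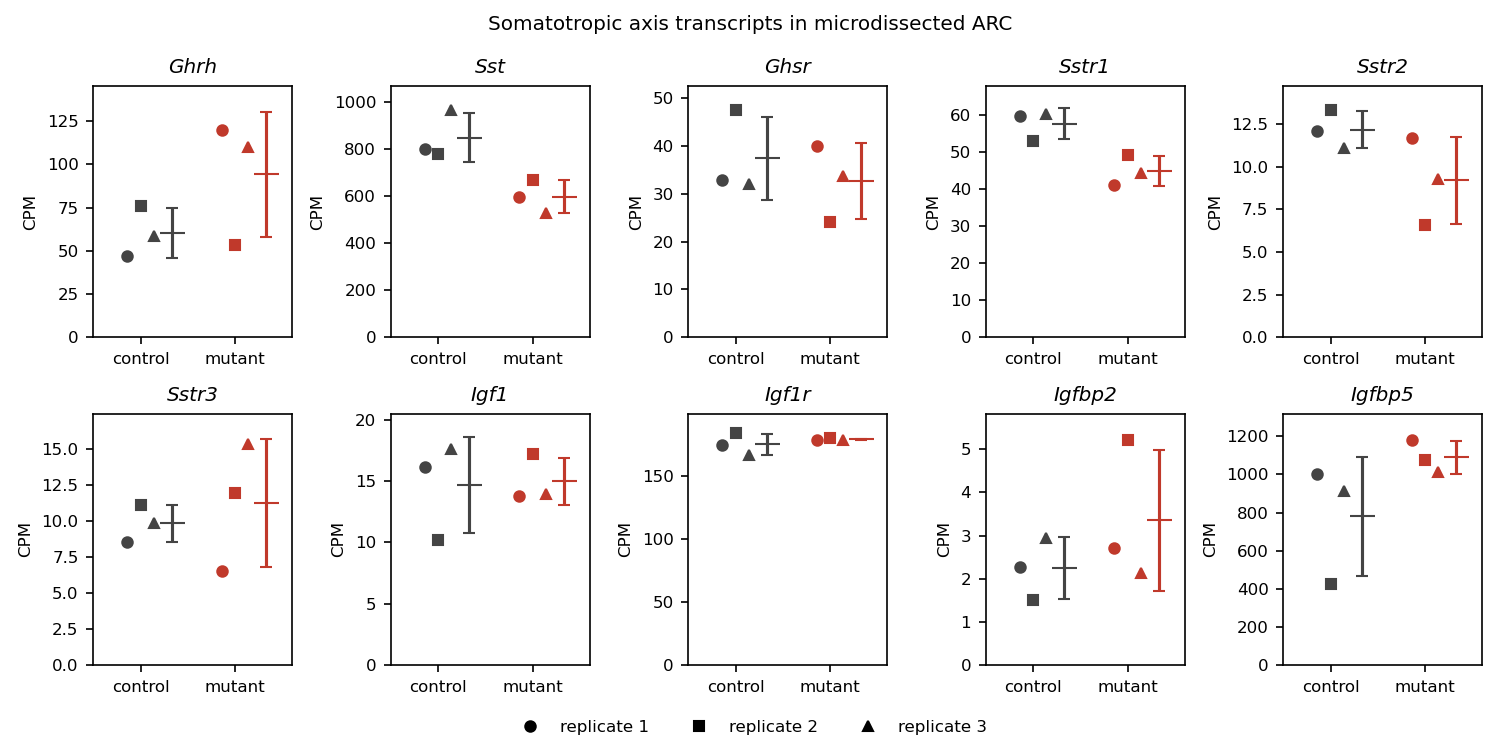
Level of each of the 10 genes in CPM (vertical axes from 0) in the 3 control samples (grey) and the 3 Esr1Nkx2-1Cre samples (red, labelled mutant); each symbol is 1 sample, its shape gives the replicate number, and the bar beside the points is the mean ± SD. The *Sst* and *Sstr1* values of all mutants lie below those of all controls, while *Ghrh* is at 110 CPM or more in mutants 1 and 3 and at 53.1 CPM in mutant 2.

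*Sst*, which encodes somatostatin, was the most abundant member per length of exon and the one with the smallest p-value. The gene (ENSMUSG00000004366.3) has 2 exons and lies at chr16:23889667-23890930 on the minus strand of NCBIM37. Its last 14 codons before the stop, in exon 2 at chr16:23889818-23889859, encode the mature peptide. They are shown beside those of *Cort*, at chr4:148499376-148499417 on the minus strand, because cortistatin is the other peptide that binds all somatostatin receptors and similar genes can share reads. The capitals mark the longest run of bases that both stretches hold in common, 21 bases. Each stretch has 42 bases and is itself shorter than a sequenced read, so this run cannot show whether reads were shared. The rest of the transcripts was not compared.
Sst: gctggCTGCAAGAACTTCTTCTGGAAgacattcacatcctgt
Cort: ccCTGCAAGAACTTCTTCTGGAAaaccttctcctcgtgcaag

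*Sst* was at 799, 779 and 966 CPM in controls and 596, 669 and 526 CPM in mutants. The highest mutant was below the lowest control, so the groups did not overlap. Controls averaged 848 ± 103 CPM (SD, n = 3) and mutants 597 ± 71.2 CPM (SD, n = 3), a ratio of 0.704. On the log2 scale the fold change was -0.51 with a standard error of 0.11 and a 95% confidence interval of -0.76 to -0.25, wholly below 0. The size of this difference exceeded the spread within either genotype. It nevertheless did not pass the test over all genes (p = 0.00128, adjusted p = 0.163, edgeR), ranking 118 of the 15236 genes by p-value, and the exact permutation p was 0.1, the smallest possible. With DESeq2 the same fold change had an adjusted p of 0.0029, and 0.623% of the genes tested by that tool were called lower in mutants. With edgeR and a filter that kept every gene counted at least once, the adjusted p was 0.0203 and 0.253% of genes were called lower. The fold change was -0.51 or -0.52 under these settings, and the call depended on the test and the filter.

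Leaving out each sample in turn kept the log2 fold change of *Sst* between -0.60 and -0.40, with adjusted p-values from 0.0916 to 0.447 in edgeR. Without control replicate 2 it was -0.56. The neuronal markers overlapped between the genotypes, with summed levels of 3364 to 4265 CPM in controls and 3635 to 5042 CPM in mutants. The glial markers did not all overlap. The summed level of 8 oligodendrocyte markers was 630 to 1172 CPM in controls and 1518 to 1677 CPM in mutants, that of 8 microglial markers was 250 to 254 CPM and 313 to 327 CPM, and that of 4 tanycyte markers was 743 to 1186 CPM and 1195 to 1406 CPM. The log2 fold change was above 0 for 8 of 8 oligodendrocyte markers, 8 of 8 microglial markers and 2 of 4 tanycyte markers. No marker of these lists was at 0 in all samples. Their part in the lower *Sst* level was not tested.

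The bases just upstream of *Sst* are shown because it is the member with the smallest p-value and because this promoter holds a well known cyclic AMP response element (CRE), TGACGTCA, set in capitals. The sequence is that of RefSeq on GRCm38.p6, chr16:23890845-23891094 on the minus strand, and the element spans 48 to 41 bases before the annotated start.
Sst promoter: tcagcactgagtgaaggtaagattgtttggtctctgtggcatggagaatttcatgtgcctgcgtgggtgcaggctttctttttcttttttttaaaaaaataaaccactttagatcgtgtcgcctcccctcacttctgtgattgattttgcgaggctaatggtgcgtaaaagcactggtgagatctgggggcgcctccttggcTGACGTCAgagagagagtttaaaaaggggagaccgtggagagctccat

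Windows of 300 bases, from 250 before to 50 after a start, were available for 9 of the 10 members, 12 windows in all. *Sstr1* had no entry. On both strands, the CRE was found in the windows of *Sst* and *Sstr2* and in 1.79% of all 32851 windows. The consensus estrogen response element, GGTCA and TGACC with any 3 bases between them, was in none of the 12 and in 0.07% of all windows, which is 23 of them. The arm GGTCA alone, which the full element also holds, was in windows of *Ghrh*, *Ghsr*, *Igf1*, *Igf1r*, *Igfbp2* and *Sstr3* and in 40.5% of all windows. These are matches of letters only.

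*Ghrh* encodes growth hormone-releasing hormone. The gene (ENSMUSG00000027643.3) lies at chr2:157155233-157173242 on the minus strand. It stood at 46.9, 75.7 and 58.6 CPM in the 3 controls against 120, 53.1 and 110 CPM in the 3 mutants. Mutants 1 and 3 were above every control, but mutant 2 was below controls 2 and 3, so the groups overlapped. Controls averaged 60.4 ± 14.5 CPM (SD, n = 3) and mutants 94.4 ± 36.2 CPM (SD, n = 3). The log2 fold change of 0.64 had a standard error of 0.36 and a 95% confidence interval of -0.28 to 1.56, and the difference did not pass the test (adjusted p = 0.685, edgeR, exact permutation p = 0.3). Without mutant replicate 2 the value was 0.93, with an adjusted p of 0.282 in edgeR.

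*Ghrh* varied more between females of one genotype than most genes. The biological coefficient of variation that edgeR fitted for it was 30.3%, higher than for 91.7% of all tested genes, whereas that of *Sst* was 11.5%, higher than for 34.1%. Among mutants, the highest *Ghrh* value was 2.27 times the lowest, against 1.27 times for *Sst*. The number of *Sst* counts per *Ghrh* count in the same library was 17.0, 10.3 and 16.5 in the controls and 4.95, 12.6 and 4.79 in the mutants. This ratio overlapped as well, since mutant 2 was above control 2. Its average was 14.6 ± 3.75 (SD, n = 3) for controls against 7.44 ± 4.46 (SD, n = 3) for mutants, with an exact two-sided permutation p of 0.2.

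The genes whose pattern over the 6 samples was most like that of either peptide were found by the root-mean-square difference of log2 CPM, each gene centred on its own mean. For *Ghrh* they were *Cyp4f15* (0.0936), *Hfm1* (0.0941) and *Col22a1* (0.122), against a median difference of 0.546 over all tested genes. *Cyp4f15*, for example, was at 1.81, 3.14, 2.01, 4.70, 2.01 and 4.80 CPM. For *Sst* they were *Nhp2l1* (0.0575), *Akap5* (0.0696) and *Srsf12* (0.0783), against a median of 0.337. *Akap5* was at 64.9, 68.9, 79.0, 48.9, 58.0 and 48.7 CPM, so it too was lower in every mutant. With 6 samples and 15236 genes, such likeness is a description of these libraries only.

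Among the somatostatin receptors, *Sstr1* had the highest level per length of exon among the members and was the only one whose groups did not overlap. All the encoded receptors couple to inhibitory G proteins and lower neuronal firing or secretion. *Sstr1* (chr12:59312759-59315431, plus strand) had 59.8, 53.1 and 60.5 CPM among controls and 41.1, 49.2 and 44.4 CPM among mutants. Every mutant was below every control. Controls averaged 57.8 ± 4.11 CPM (SD, n = 3) and mutants 44.9 ± 4.08 CPM (SD, n = 3), a ratio of 0.777. This log2 fold change of -0.36, with a standard error of 0.10 and a 95% confidence interval of -0.59 to -0.14, did not pass the test (p = 0.00468, adjusted p = 0.275, edgeR, exact permutation p = 0.1). The gene ranked 256 by p-value, and leaving out single samples gave values from -0.44 to -0.30.

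*Sstr2* encodes the receptor best known for mediating somatostatin's inhibition of GHRH neurons and of pituitary growth hormone cells. It was at 12.1, 13.3 and 11.1 CPM in control tissue and 11.7, 6.60 and 9.26 CPM in mutant tissue, and lies at chr11:113480656-113487319 on the plus strand. Mutants 2 and 3 were below every control, while mutant 1 was inside the range of the controls. Here the log2 fold change was -0.41, with a 95% confidence interval of -0.87 to 0.042 and an adjusted p of 0.597 in edgeR. It was -0.22 without mutant replicate 2 and -0.62 without mutant replicate 1. *Sstr3*, whose product sits in neuronal primary cilia (chr15:78367445-78374775, minus strand), was at 8.51, 11.1 and 9.83 CPM in controls and 6.52, 11.9 and 15.3 CPM in mutants. The mutants spanned a wider range than the controls on both sides. Its log2 fold change was 0.20 (95% confidence interval -0.43 to 0.83, adjusted p = 0.887, edgeR), and it turned to -0.086 without mutant replicate 3.

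The remaining receptors of this family had few counts. *Sstr4* stood between 2.23 and 4.27 CPM over the 6 samples and *Sstr5* between 0.251 and 1.58 CPM, with adjusted p-values of 0.994 and 0.789 in edgeR. The summed level of *Sstr1* to *Sstr5* was 85.0, 81.4 and 86.9 CPM in the controls and 63.0, 72.2 and 73.4 CPM in the mutants. The sum was lower in every mutant, and *Sstr1* contributed most of its counts in all 6 samples.

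*Ghsr*, the ghrelin receptor, promotes growth hormone release when activated on GHRH neurons. The gene (chr3:27270273-27276932, plus strand) stood at 32.8, 47.5 and 32.0 CPM in the 3 controls against 39.9, 24.2 and 33.8 CPM in the 3 mutants. Control 2 was the highest sample and mutant 2 the lowest, and the other 4 samples were mixed. A log2 fold change of -0.20 had a 95% confidence interval of -0.70 to 0.29 (adjusted p = 0.847, edgeR). Without control replicate 2 it was 0.0069, so the negative sign rested on 1 library.

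**Figure D2:**
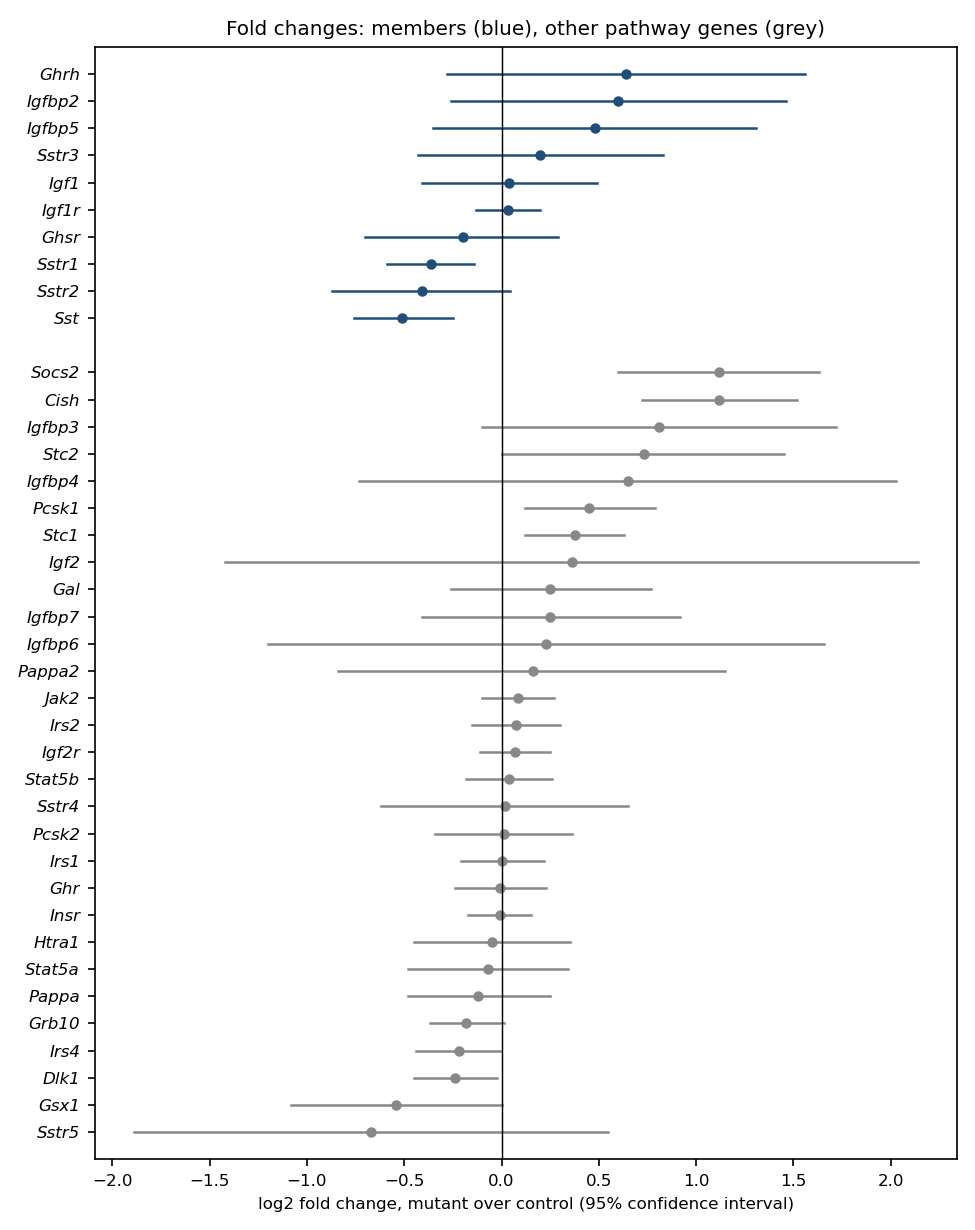
Log2 fold change of mutant over control (horizontal axis) with its 95% confidence interval from the edgeR fit, for the 10 members (blue) and for the 29 other pathway genes that were tested (grey), each block sorted by fold change. Among members, the intervals of *Sst* (-0.76 to -0.25) and *Sstr1* (-0.59 to -0.14) lie wholly below 0, and no adjusted p-value in the plot is under 0.05.

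*Igf1* encodes insulin-like growth factor 1, which in the brain is made by neurons and microglia as well as arriving from the blood. It had 16.1, 10.2 and 17.6 CPM among controls and 13.8, 17.2 and 13.9 CPM among mutants (chr10:87321010-87399792, plus strand). Control 2 was the lowest of the 6, and the mutants lay inside the range of the controls. Its log2 fold change was 0.039, with a 95% confidence interval of -0.41 to 0.49 (adjusted p = 0.979, edgeR), and its sign turned when either control replicate 2 (-0.17) or mutant replicate 2 (-0.077) was left out.

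*Igf1r*, the receptor tyrosine kinase that binds IGF-1, was the steadiest member. It was at 175, 184 and 167 CPM in control tissue and 179, 180 and 179 CPM in mutant tissue (chr7:75097713-75371484, plus strand). The mutants were within 1.01 times of one another and inside the range of the controls. This gave a log2 fold change of 0.033 with the narrowest interval of any member, -0.13 to 0.20 (adjusted p = 0.939, edgeR). Its biological coefficient of variation was 8.58%, higher than for only 1.19% of all tested genes.

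*Igfbp5* and *Igfbp2* encode secreted proteins that bind IGFs and limit or prolong their action, and the genes are neighbours on chromosome 1, with 5457 bases between them. *Igfbp5* (chr1:72904506-72921458, minus strand) was at 1001, 423 and 915 CPM in controls and 1183, 1076 and 1012 CPM in mutants. Every mutant was above every control, although mutant 3 and control 1 were nearly level and control 2 was far below all other samples. Controls averaged 780 ± 312 CPM (SD, n = 3) and mutants 1090 ± 86.2 CPM (SD, n = 3). Their log2 fold change was 0.48 with a standard error of 0.33 and a 95% confidence interval of -0.35 to 1.31, which did not pass the test (adjusted p = 0.754, edgeR). Without control replicate 2 it was 0.19, with a standard error of 0.10 and an adjusted p of 0.728 in edgeR.

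*Igfbp2* (chr1:72871077-72899048, plus strand) had the lowest level per length of exon in controls, and its 3 control values of 2.28, 1.51 and 2.94 CPM compare with 2.72, 5.21 and 2.13 CPM in mutants. Mutant 2 was the highest sample, control 2 the lowest, and the other 4 overlapped. The log2 fold change of 0.60 had a 95% confidence interval of -0.26 to 1.46 (adjusted p = 0.708, edgeR), and without mutant replicate 2 it was 0.11.

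Control replicate 2 was the lowest of the 6 samples for 3 members, *Igf1*, *Igfbp2* and *Igfbp5*, and for 3 of the 4 tested IGF binding protein genes outside the members, *Igfbp3*, *Igfbp4* and *Igfbp7*. It was the lowest sample for 21.7% of all tested genes (3311). *Igfbp4*, for example, stood at 24.5, 5.41 and 19.4 CPM in the 3 controls against 24.6, 29.0 and 23.1 CPM in the 3 mutants. In the same library, 8 endothelial and mural markers summed to 138 CPM against 201 to 245 CPM in the others, and 8 leptomeningeal and choroid plexus markers to 109 CPM against 236 to 728 CPM. The sum of the 4 tanycyte markers was likewise lowest there, at 743 CPM. These sums were lowest in control 2, as were the binding protein genes named here. Elsewhere the match was partial. *Igfbp5* and *Igfbp3* were highest in mutant 1, as was the tanycyte sum at 1406 CPM. The leptomeningeal and choroid plexus sum was highest in mutant 2, and the endothelial and mural sum in control 1. The part of these tissues in the differences was not tested. Without control replicate 2, the groups did not overlap for 4 members, *Sst*, *Sstr1*, *Igfbp5* and *Igf1r*, against 24.6% of all tested genes, an alternative chosen after seeing the data.

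**Figure D3:**
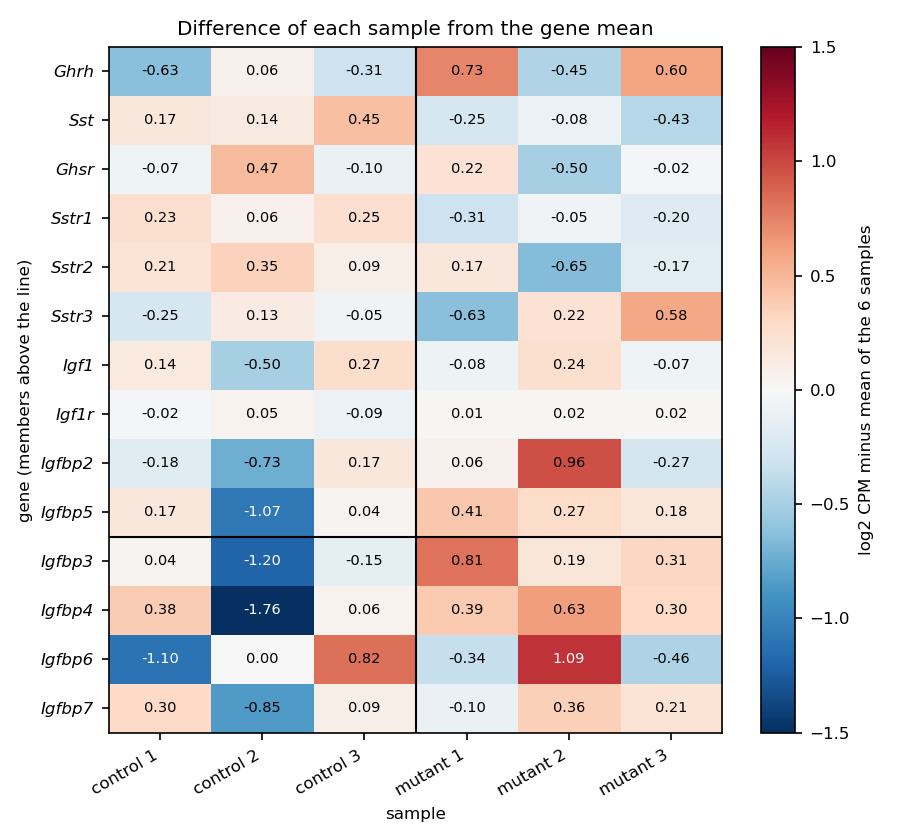
Log2 CPM of each gene in each sample minus the mean of the 6 samples (colour, on the log2 scale, with the value printed), for the 10 members above the horizontal line and the 4 other tested IGF binding protein genes below it; the vertical line separates controls from mutants. Control 2 is at -1.07 for *Igfbp5*, -1.20 for *Igfbp3* and -1.76 for *Igfbp4*, while all mutants are below 0 for *Sst* and *Sstr1*.

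The order of the members by level was set per length, as CPM per kb of annotated exon. In controls *Sst* came first at 1416 CPM per kb ± 172 (SD, n = 3), about an order of magnitude above *Igfbp5* at 130 ± 51.9 and *Ghrh* at 90.4 ± 21.7. The ranges of *Igfbp5* and *Ghrh* overlapped. *Igf1r* at 39.2 ± 1.91, *Sstr1* at 28.2 ± 2.01, *Ghsr* at 8.44 ± 1.97, *Sstr2* at 5.82 ± 0.529 and *Sstr3* at 2.50 ± 0.331 followed, each clear of the next in every control. *Igf1* at 1.47 ± 0.391 and *Igfbp2* at 1.21 ± 0.387 closed the order and overlapped. In mutants *Sst* was still first, at 996 ± 119, with *Igfbp5* at 182 ± 14.4 and *Ghrh* at 141 ± 54.2, which overlapped. There *Ghsr* overlapped *Sstr2*, *Sstr2* overlapped *Sstr3* and *Sstr3* overlapped *Igf1*. *Igfbp2* at 1.82 ± 0.886 stood above *Igf1* at 1.51 ± 0.196 in mutants, again with overlap.

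**Figure D4:**
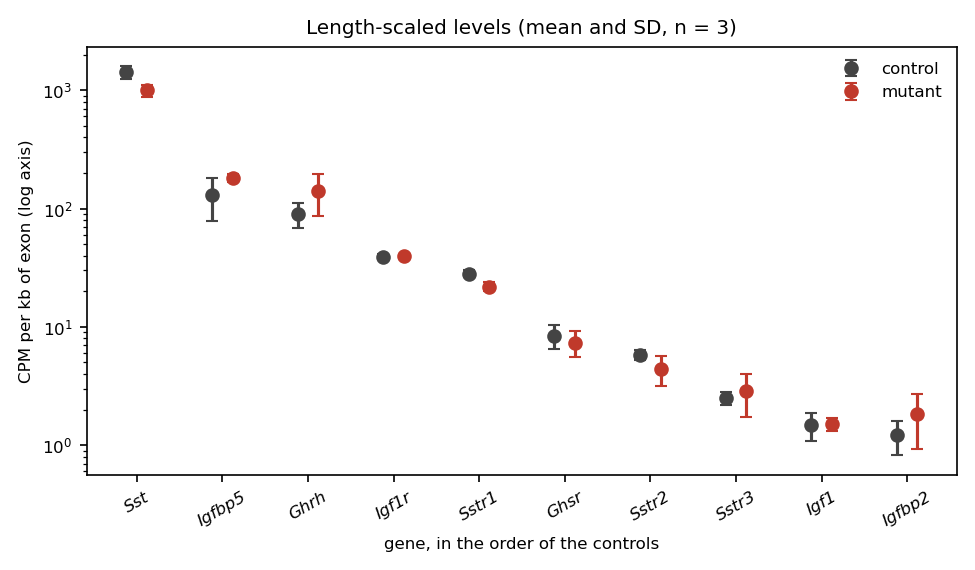
Mean level of each member in CPM per kb of exon (vertical log axis) in controls (grey) and mutants (red), with bars for the SD over 3 samples, in the order of the controls. *Sst* stands at 1416 CPM per kb in controls and 996 in mutants, far above *Igfbp5* and *Ghrh*, and *Igf1* and *Igfbp2* are the lowest.

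A further 36 genes of the axis were examined by role, of which 29 were tested. None had an adjusted p-value under 0.05 in edgeR, against 0.118% of all tested genes. Of the 29, 7 had an unadjusted p under 0.05, against 8.85% of all tested genes. Without overlap of the groups, 6 were higher and 2 were lower in every mutant, against 7.88% of all tested genes in each direction, and the median log2 fold change was 0.071. The 7 that were too rare to test were *Gh*, *Ghrl*, *Cort*, *Ghrhr*, *Igfbp1*, *Igfals* and *Mboat4*. *Gh*, growth hormone itself, had 9 counts in control 3, 1 count in mutant 3 and 0 in the other 4 libraries, which allows a level of up to the floor there. *Cga*, the most abundant pituitary marker, was by contrast at 372 to 582 CPM in every sample but control 2. *Cort* was at 0.0582 to 0.413 CPM, at or near the floor, against 526 CPM or more for *Sst*.

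The lowest p-values of the list belonged to *Cish* and *Socs2*, which encode SOCS-family inhibitors that are induced by STAT5 and damp signals from the growth hormone and prolactin receptors. *Cish* (chr9:107198357-107205115, plus strand) had 5.03, 5.47 and 7.24 CPM among controls and 14.1, 12.2 and 12.2 CPM among mutants. *Socs2* was at 9.38, 6.86 and 13.8 CPM in control tissue and 23.7, 19.7 and 21.7 CPM in mutant tissue. In both genes every mutant was above every control. The log2 fold change of *Cish* was 1.12 with a standard error of 0.18, just outside the threshold with an adjusted p of 0.0567 in edgeR. That of *Socs2* was also 1.12, with a standard error of 0.23 and an adjusted p of 0.124.

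Both *Cish* and *Socs2* passed the threshold when DESeq2 was used, with adjusted p-values of 0.000284 and 0.000628, where 0.643% of genes were called higher in mutants. They also passed with edgeR when every gene counted at least once was tested, with adjusted p-values of 0.00501 and 0.0242, where 0.218% were called higher. Without control replicate 3, *Socs2* alone passed at a log2 fold change of 1.42 (adjusted p = 0.0438, edgeR), a setting under which 0.0323% of genes were called higher. The summed levels of the oligodendrocyte, microglial and tanycyte markers, given with *Sst*, were also higher in every mutant, and their part in these differences was not tested. The prolactin receptor gene *Prlr* was not in the lists examined here, and the study names it among the significantly downregulated ARC genes of these mutants. For the growth hormone receptor and for the kinase and transcription factors of the same pathway the groups overlapped. *Ghr*, the growth hormone receptor, was at 109 to 126 CPM in controls and 103 to 134 CPM in mutants, with a log2 fold change of -0.0069 (95% confidence interval -0.24 to 0.23, adjusted p = 0.994, edgeR). *Jak2*, *Stat5a* and *Stat5b*, which carry the signal from the receptor to the nucleus, had log2 fold changes of 0.085, -0.067 and 0.038.

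The other genes named by p-value were *Stc1*, *Pcsk1*, *Dlk1* and *Irs4*. *Stc1*, a stanniocalcin that inhibits the pappalysin proteases which cut IGF binding proteins, was at 15.7, 14.9 and 15.7 CPM in controls and 21.0, 19.2 and 19.9 CPM in mutants, without overlap. At a log2 fold change of 0.38 with a standard error of 0.11, it did not pass the test (adjusted p = 0.324, edgeR). *Pcsk1*, a convertase that cuts prohormones in neurons, stood at 67.7, 64.9 and 59.4 CPM in the 3 controls against 111, 74.6 and 77.7 CPM in the 3 mutants. Its groups did not overlap either (log2 fold change 0.45, standard error 0.15, adjusted p = 0.391, edgeR), and without mutant replicate 1, the highest sample, the fold change was 0.25.

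*Dlk1*, an imprinted gene found in GHRH neurons among others, had 846, 880 and 920 CPM among controls and 847, 687 and 708 CPM among mutants. *Irs4*, a hypothalamic adaptor of the insulin and IGF-1 receptors, was at 1087, 966 and 935 CPM in control tissue and 944, 778 and 839 CPM in mutant tissue. In each, mutant 1 overlapped the controls and the other two were lower. The log2 fold changes were -0.24 (adjusted p = 0.507) and -0.22 (adjusted p = 0.561) in edgeR. *Gsx1*, a homeobox factor needed for GHRH neurons to form, was lower in every mutant, at 4.82, 4.65 and 5.81 CPM in the controls against 4.54, 2.83 and 3.20 CPM, and did not pass the test (log2 fold change -0.54, 95% confidence interval -1.08 to 0.00093, adjusted p = 0.561, edgeR).

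Among the IGF genes outside the members, *Igfbp3* was higher in every mutant. It was at 51.4, 21.7 and 45.0 CPM in controls and 87.6, 56.9 and 62.2 CPM in mutants (log2 fold change 0.81, 95% confidence interval -0.10 to 1.72, adjusted p = 0.597, edgeR). *Igf2*, which in brain tissue is made mainly by the meninges and choroid plexus, stood at 55.4, 91.8 and 66.7 CPM in the 3 controls against 47.4, 181 and 46.1 CPM in the 3 mutants. Mutant 2 was the highest sample for *Igf2*, and it was also the highest for the leptomeningeal and choroid plexus markers, at 728 CPM. The order did not match the sum in every library, since control 2 had the second highest *Igf2* level and the lowest sum of those markers. Single markers of the list differed in control 2. *Slc13a4* and *Slc6a13* were second highest there, at 13.8 and 8.2 CPM. *Folr1*, *Ttr*, *Dcn*, *Lum* and *Col1a1* were lowest there, and *Col1a2* was lower only in mutant 1. The receptors *Igf2r* and *Insr* overlapped between the genotypes, with log2 fold changes of 0.071 (95% confidence interval -0.11 to 0.25) and -0.0099 (-0.17 to 0.15).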

How the data were processed

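ARC was dissected by hand from 6 females, and total RNA was amplified before libraries were made. The labels give the females as adult and the RNA as 50 ng per sample. The study's methods give a range of ages, and a range of RNA amounts for ARC and bone marrow together. Per the submitters' processing notes, the tools were TopHat2 2.1.0, HTSeq 0.6 and DESeq2 1.14.1 and the build was mm9. The study's methods give NCBI37/mm10 instead, a name made from more than one assembly. Reads were aligned with TopHat2 and assigned to exons with HTSeq by the authors, who deposited raw, unnormalized counts for 24015 gene symbols per sample. The strand setting of the counting is not given in the sources used here. Amplification from little RNA and the absence of molecular identifiers mean that reads are not independent molecules.

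Samples were grouped by the genotype in their labels. Nothing in the labels says how the animals were related. The edgeR p-values set the genotype difference against a spread between these samples that is estimated partly from all tested genes. Counts were tested in R 4.3.3 with edgeR 4.0.16 (TMM, filterByExpr, robust quasi-likelihood fit on genotype), with Benjamini-Hochberg adjustment over all 15236 tested genes. Standard errors are the log2 fold change over the root of the F statistic, and 95% intervals use each gene's total degrees of freedom in the fit, prior plus residual (median 10.1). The study used DESeq2, run here (1.42.0) as an alternative beside limma voom (3.58.1), RLE normalization, minimums of 1 count in any sample and 10 counts in every sample, a replicate block, plain CPM, longest-transcript length and each sample left out in turn. The edgeR, limma voom and DESeq2 tests were also run on simulated counts with known changes, drawn with the levels and spread of these samples. The outcome of those runs is not given here, and no statement in the text rests on it. Pairs of samples differed by a chi-square of 6.60 to 29.6 per degree of freedom, so no library was a copy of another.

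The members, the pathway and marker lists and the rule for named genes were chosen with earlier results of these data known. The rule names every member, the pathway genes past the threshold or else the 6 with the smallest p, *Esr1* as the genotype check, and the 3 genes nearest to *Ghrh* and to *Sst* by root-mean-square difference. Other pathway genes given with values (*Sstr4*, *Sstr5*, *Ghr*, *Jak2*, *Stat5a*, *Stat5b*, *Gsx1*, *Igfbp3*, *Igfbp4*, *Igf2*, *Igf2r*, *Insr*, *Gh* and *Cort*) were chosen after their values were seen. Positions and exon lengths are from the GENCODE annotation of NCBIM37, matched by symbol, and promoter windows are from RefSeq on GRCm38.p6. The summed level of 5 VMH markers was 89.3 to 205 CPM in controls and 109 to 312 CPM in mutants, that of 5 paraventricular markers 6.96 to 26.7 and 12.0 to 42.6 CPM, and that of 7 astrocyte markers 3791 to 6570 and 4094 to 6027 CPM.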

Additional observations from a re-analysis of the deposited data

How the results depend on the processing

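Over all tested genes, edgeR called 18, against 191 with DESeq2, 106 with a minimum of 1 count in any sample and 123 with the replicate block, and 7 to 46 with single samples left out. No member was called, except *Sst* with DESeq2 (log2 fold change -0.51, adjusted p = 0.0029) and with a minimum of 1 count (-0.52, adjusted p = 0.0203), 1 member in each case, and none was called with any sample left out (0 to 0). RLE normalization, a minimum of 10 counts in every sample, limma voom and the replicate block called no member, with lowest adjusted p-values of 0.154, 0.155, 0.151 and 0.180. All 10 members kept the sign of their fold change under these settings. The sign turned for *Ghsr* without control replicate 2 (0.0069), for *Sstr3* without mutant replicate 3 (-0.086), for *Igf1* without mutant replicate 2 (-0.077) or control replicate 2 (-0.17), and for *Igf1r* without control replicate 3 (-0.0016); the intervals of these genes span 0 with all samples. Leaving out single samples gave 0.43 to 0.93 for *Ghrh*, -0.60 to -0.40 for *Sst*, -0.37 to 0.0069 for *Ghsr*, -0.44 to -0.30 for *Sstr1*, -0.62 to -0.22 for *Sstr2*, -0.086 to 0.47 for *Sstr3*, -0.17 to 0.19 for *Igf1*, -0.0016 to 0.069 for *Igf1r*, 0.11 to 0.84 for *Igfbp2* and 0.19 to 0.70 for *Igfbp5*. Of the pathway genes, DESeq2, the minimum of 1 count and the replicate block each called 2, *Cish* and *Socs2*, and 0 to 1 were called with single samples left out. The cause of these changes was not tested. The labels do not say whether the replicate numbers pair the samples. The deviations of same-numbered samples from their group means correlated at 0.281, 0.0466 and -0.00264. Those of differently numbered samples correlated at -0.263 to 0.21. These values show no clear pairing and cannot exclude it. With the block, which called 0.453% of genes higher, *Cish* was at 1.13 (adjusted p = 0.0310) and *Socs2* at 1.16 (adjusted p = 0.0301). The order per length in controls was the same with the longest transcript, where *Sstr3* and *Igf1* also overlapped. In mutants that length put *Ghrh* (183 CPM per kb) above *Igfbp5* (182 CPM per kb), with overlap. Plain CPM moved no mean by more than its SD except that of *Igf1r* in mutants (181 against 180 CPM). With 3 females a group, the interval of *Ghrh* reaches from -0.28 to 1.56.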
